A study of Mus musculus with 48 samples.

Results

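The comparison described here sets V580 day 10 against V580 day 8, the last interval of a time course in which female mouse embryonic stem cells (ESCs) were treated with V580 to obtain cells resembling the somatic cells of the fetal ovary. V580 is the combination of vitamin C (Vc) and AM580, an agonist of retinoic acid receptor alpha. The members were chosen by sample label alone, as the 3 libraries of V580_D10 and the 3 libraries of V580_D8, which are 6 of the 48 samples of the series. Both groups received the same treatment on fibronectin-coated plates and differed in their labels by the day of harvest. The labels used here name no batch of culture or sequencing, so that a batch could not be told apart from the day. V580_D4 and V580_D6 from the same course and E12.5_GC, cells separated from E12.5 female gonads, with 3 libraries each, shared the fitted model and served as reference levels. The labels give the strain as C57BL/6 for all 5 groups.

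The ESCs had been kept on inactivated mouse embryonic fibroblasts, which the study's methods remove by a short adherence step before induction, and they describe a magnetic depletion of SSEA1+ cells after induction for the cells used in aggregation. Whether the V580 cells that were sequenced had passed this depletion is not given in the sources used here. The labels number the libraries of a day but do not say that they came from separate cultures, so that the p values rest on a spread between libraries that may be technical. That spread was estimated over the 15 libraries of all 5 groups together. A gene that varied between E12.5_GC libraries therefore had a larger SE for day 10 against day 8. In bulk libraries, fewer cells of a type and less RNA of that gene per cell cannot be told apart.

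In the fetal ovary, somatic cells descend from the coelomic epithelium and become pregranulosa cells, which surround the germ cells, or interstitial cells, which lay down matrix. Gata4, Wt1, Emx2, Lhx9 and Nr5a1 encode transcription factors of the gonad primordium, and Foxl2 encodes the transcription factor that maintains granulosa identity. Mesenchymal and smooth muscle cells are known instead for fibrillar collagens, elastic fibre proteins and an actomyosin contractile apparatus, whose genes are driven in part by serum response factor at CArG boxes. The same factor acts at immediate early genes, which are switched on within minutes by growth factors or handling and need no new protein.

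From day 8 to day 10, genes of the extracellular matrix and of the smooth muscle contractile apparatus rose together, and immediate early genes fell. Of 11512 genes tested, 149 changed by at least 2-fold (1.29%), of which 112 were higher at day 10 (0.973%) and 37 were lower (0.321%). Without the fold limit, 3969 genes passed the adjusted p threshold of 0.05 (34.5%), with 2242 higher (19.5%) and 1727 lower (15.0%), and the median absolute log2 fold change of these was 0.37. Most of the movement between the days was therefore smaller than 2-fold, and the median log2 fold change of all genes was 0.01. Here "rose", "fell" and "changed" stand for an adjusted p below 0.05 in limma, and fold changes are on the log2(FPKM+1) scale, which understates the change of genes with low values. Unless another fit is named, a gene that "did not pass" missed this threshold in the fit of all 5 groups. It is not thereby shown to be unchanged. The shares of all genes given here are the background for the counts of list members below.

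The difference between the days was larger than the spread within them. The root mean square difference of log2(FPKM+1) over all genes tested was 0.316 to 0.366 between a day 8 and a day 10 library. It was 0.0994 to 0.149 between day 8 libraries and 0.109 to 0.147 between day 10 libraries. Every one of the 149 genes had values in the 3 day 10 libraries that did not overlap those in the 3 day 8 libraries, whereas over all genes tested 31.7% lay wholly above and 27.5% wholly below without overlap. Replicate 1 of day 8 and replicate 2 of day 10 stood slightly apart from their own groups, and replicate 2 of day 10 was the lowest day 10 library for Col1a1, Acta2 and Eln and the highest for Nr4a1, Fosb and Atf3, that is, on the day 8 side in both directions. The number of genes changed by at least 2-fold was 172 without it.

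**Figure D1:**
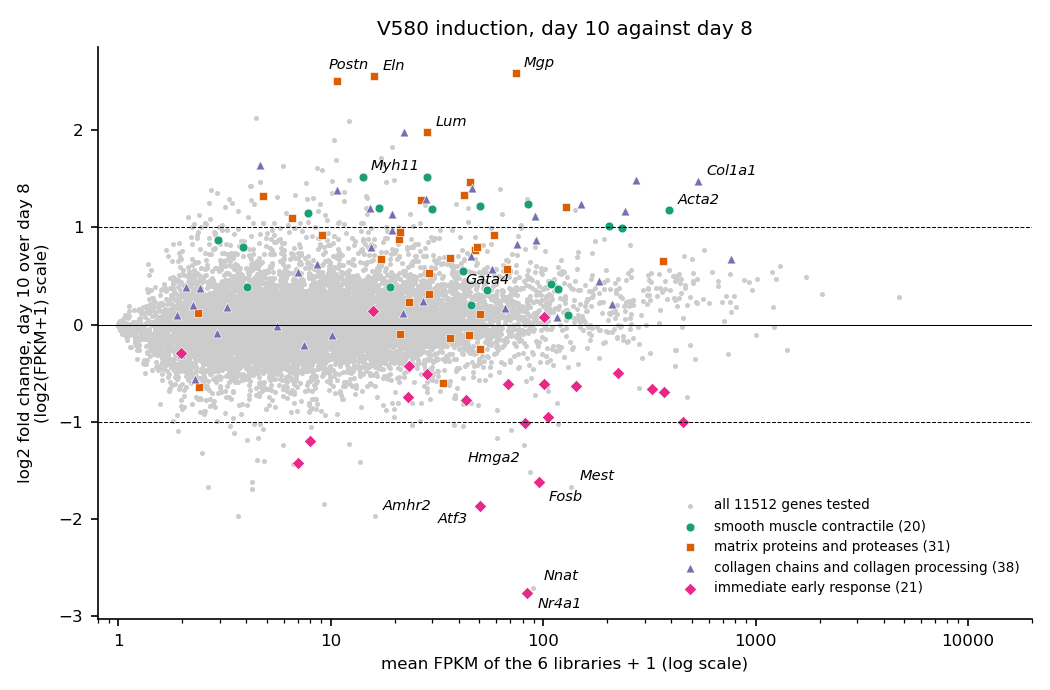
Each point is 1 of 11512 genes, with its mean FPKM over the 6 libraries plus 1 on the x axis (log scale) and its log2 fold change of day 10 over day 8 on the y axis; coloured symbols mark the tested members of 4 gene lists and dashed lines mark a 2-fold change. Contractile, matrix and collagen genes lie mostly above 0, up to 2.59 for Mgp, and immediate early genes mostly below it, down to -2.76 for Nr4a1.

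The 3 largest rises were of matrix genes. Mgp, which encodes matrix Gla protein, an inhibitor of calcification (chr6:136872435-136875823 on GRCm38), was at 20.7, 20.9 and 18.9 FPKM in the day 8 libraries and at 127, 124 and 127 FPKM in the day 10 libraries. The ratio of the means was 6.25 and the log2 fold change 2.59 (SE 0.14, adjusted p = 1.21e-08, n = 3 and 3). Both groups were tight and lay far apart. Eln, the gene of elastin (chr5:134702593-134747323), was at 4.16, 3.64 and 3.17 FPKM at day 8 and at 28.1, 23.0 and 27.9 FPKM at day 10, a log2 fold change of 2.55 (SE 0.11, adjusted p = 2.18e-09). Postn, which encodes periostin, a matrix protein of connective tissue under load, was at 2.44, 2.03 and 2.16 FPKM at day 8 and at 17.1, 17.6 and 16.9 FPKM at day 10, a log2 fold change of 2.50 (SE 0.12, adjusted p = 6.45e-09). For all 3 genes the lowest day 10 library was several-fold above the highest day 8 library.

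Among 31 tested genes of matrix proteins and proteases, 22 rose and 3 fell, with a median log2 fold change of 0.77 against 0.01 over all genes. The share that changed was 80.6%, against 34.5% of all genes tested. By at least 2-fold, 10 rose, against 0.973% of all genes tested. The 10 included Lum, Dcn and Bgn, which encode small leucine-rich proteoglycans that bind collagen fibrils. Lum was at 9.21 to 12.3 FPKM at day 8 and at 40.8 to 45.9 FPKM at day 10 (log2 fold change 1.98, SE 0.10, adjusted p = 1.04e-08). Dcn went from 21.5 to 25.3 FPKM at day 8 to between 58.2 and 61.9 FPKM at day 10 (log2 fold change 1.33, SE 0.08, adjusted p = 4.0e-08). Fn1, the gene of fibronectin, was high at both days, at 71.8 to 83.6 FPKM and then at 167 to 189 FPKM (log2 fold change 1.21, SE 0.12). The 3 genes that fell were Spp1, the gene of osteopontin, with a log2 fold change of -0.64, the protease gene Mmp11 with -0.60, and the protease inhibitor gene Timp2 with -0.25, so that the secreted proteases and their inhibitors did not move as a block. Mmp14 and Plau, which act in matrix breakdown, had log2 fold changes of 0.11 and -0.10 and did not pass.

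The collagen genes moved with them. Of 38 tested genes of collagen chains and collagen processing, 26 rose and 3 fell, 12 rose by at least 2-fold, and the median log2 fold change was 0.60. The share that changed was 76.3%, against 34.5% of all genes tested. Col1a1, a chain of type I collagen, was at 339, 253 and 252 FPKM at day 8 and at 809, 653 and 884 FPKM at day 10 (log2 fold change 1.47, SE 0.14, adjusted p = 3.79e-06). Col3a1, the chain of type III collagen, was at 158, 133 and 137 FPKM at day 8 and at 411, 376 and 415 FPKM at day 10 (log2 fold change 1.48, SE 0.07, adjusted p = 7.37e-09). These fibrillar chains were among the most abundant of the genes that changed by at least 2-fold. The summed FPKM of the list ran from 2090.4 to 2445 over the day 8 libraries and from 3700.5 to 4359.6 over the day 10 libraries.

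Chains of other collagen types rose from lower levels. Col8a1, a short-chain collagen of vessel walls, was at 1.21 to 1.26 FPKM at day 8 and at 5.18 to 6.70 FPKM at day 10 (log2 fold change 1.64, SE 0.08, adjusted p = 5.66e-09). Basement membrane chains moved less, with log2 fold changes of 0.21 for Col4a1, which did not pass, and 0.45 for Col4a2, which did not pass under quantile normalization (adjusted p = 0.0953 in limma). The 3 chains that fell were Col2a1, the chain of cartilage collagen, with -0.56, Col23a1 with -0.31 and Col11a1 with -0.21, the last with an adjusted p above 0.05 when any single library was left out, with a pseudocount of 0.1 and with the replicate number as a block (0.0522).

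Enzymes that process collagen also rose. Lox encodes lysyl oxidase, which cross-links collagen and elastin outside the cell. It was at 8.34, 7.38 and 8.15 FPKM at day 8 and at 37.6, 30.4 and 35.3 FPKM at day 10 (log2 fold change 1.98, SE 0.12, adjusted p = 2.69e-08). P4ha1, a catalytic subunit of the prolyl 4-hydroxylase for which vitamin C is a cofactor, was at 53.6 to 62.1 FPKM at day 8 and at 115 to 133 FPKM at day 10 (log2 fold change 1.12, SE 0.07, adjusted p = 5.82e-08), although its fold was 0.99 on the log2 scale under quantile normalization. Serpinh1, the collagen chaperone of the endoplasmic reticulum, was at 563 to 642 FPKM and then at 835 to 1019.8 FPKM (log2 fold change 0.68, SE 0.13, adjusted p = 0.0015). The paralogs Loxl1, Loxl3 and Loxl4 did not pass, with log2 fold changes of 0.17, -0.10 and 0.10.

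**Figure D2:**
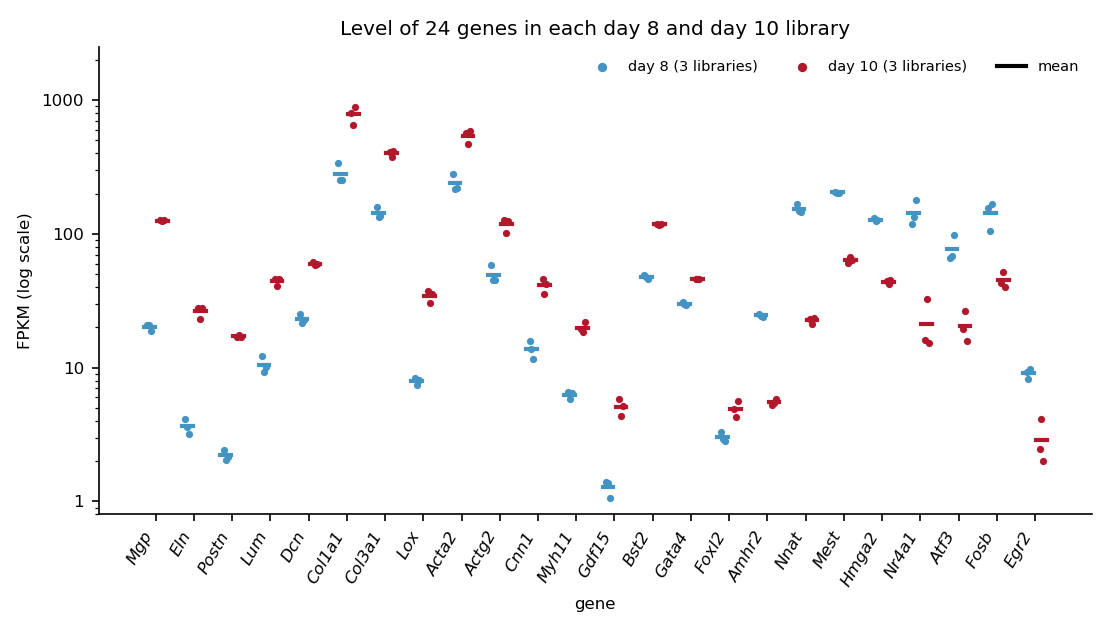
FPKM (log scale) of 24 genes in each of the 3 day 8 libraries (blue points) and the 3 day 10 libraries (red points), with horizontal bars at the means. The groups do not overlap for any of the 24 genes, and the spread within a day is widest for the immediate early genes at the right, such as Nr4a1 at 15.3 to 32.7 FPKM on day 10.

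Of 20 tested smooth muscle contractile genes, 17 rose (14 to 19 under the alternatives run) and none fell, and 9 rose by at least 2-fold. The share that changed was 85%, against 34.5% of all genes tested. The median log2 fold change was 0.93, the highest among the 42 lists examined. The other 3 genes, Cald1, Flna and Vcl, had values of 0.20, 0.10 and 0.39 and did not pass. Acta2, smooth muscle alpha-actin, was at 279, 218 and 219 FPKM at day 8 and at 571, 467 and 587 FPKM at day 10 (log2 fold change 1.18, SE 0.14, adjusted p = 1.68e-05), with a log2 fold change of 0.95 under quantile normalization. Myh11, the smooth muscle myosin heavy chain and the marker most restricted to that lineage, was at 6.61, 5.79 and 6.44 FPKM at day 8 and at 19.5, 18.4 and 21.9 FPKM at day 10 (log2 fold change 1.52, SE 0.09, adjusted p = 4.0e-08). Cnn1, the actin-binding protein calponin, was at 11.7 to 15.8 FPKM and then at 35.4 to 45.9 FPKM (log2 fold change 1.52, SE 0.11, adjusted p = 2.43e-07). Over the list, log2 fold changes ran from 0.10 to 1.52.

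Actg2, the enteric smooth muscle actin, was at 45.2 to 58.2 FPKM at day 8 and at 101 to 128 FPKM at day 10 (log2 fold change 1.24, SE 0.13), and Des, the intermediate filament gene of muscle, was at 26.9 to 32.4 FPKM and then at 59.1 to 76.0 FPKM (log2 fold change 1.22, SE 0.12). Myocd, the coactivator of serum response factor in smooth muscle, was low, at 1.80 to 1.86 FPKM at day 8 and at 3.61 to 4.12 FPKM at day 10 (log2 fold change 0.79, SE 0.07, adjusted p = 1.99e-06). Tagln, an early smooth muscle gene, was at 2.46 to 2.56 FPKM and then at 3.48 to 3.75 FPKM (log2 fold change 0.39, SE 0.07). Striated muscle genes did not follow. Of 9 tested cardiac and skeletal muscle genes, 1 rose (11.1%, against 34.5% of all genes tested), Tnnc1 with a log2 fold change of 0.43. Acta1, skeletal alpha-actin, was at 5.48 to 7.49 FPKM at day 8 and at 4.23 to 6.46 FPKM at day 10 (adjusted p = 0.552 in limma).

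Both the contractile genes that rose and the immediate early genes that fell are textbook targets of serum response factor, so their promoters were searched for the CArG box and, for comparison, for the cAMP response element TGACGTCA, over the 250 bases before each RefSeq start site. Both patterns are palindromic, so that each match stands on both strands, and the motifs did not overlap in the windows shown. A CArG box was present in 1.36% of the 9095 tested genes with a window. It was present in 1 of the 7 contractile genes with a window that rose by at least 2-fold, Myl9, and in 2 of the 15 immediate early genes with a window that fell, Egr2 and Zfp36. The cAMP response element was present in 3.11% of the tested genes with a window, in none of the 7 contractile genes and in 2 of the 15 immediate early genes, Btg2 and Dusp1. These matches describe letters in a window and are not binding sites. Only the strict CArG pattern, CC, then A or T throughout, then GG, was searched. Boxes with another base inside, or outside the window, were not seen, so that a gene without a match is not shown to lack a box. The windows of 1 gene that rose and 2 that fell are shown with the motif in capitals, 5′ to 3′ on the strand of the gene, from RefSeq on GRCm38.p6. Myl9, a myosin regulatory light chain, lies on the plus strand at chr2:156775214-156775463. Egr2, a zinc finger transcription factor, lies on the plus strand at chr10:67537680-67537929, where 4 of its 5 listed starts hold the box. Dusp1, a MAP kinase phosphatase, lies on the minus strand at chr17:26508473-26508722.
Myl9: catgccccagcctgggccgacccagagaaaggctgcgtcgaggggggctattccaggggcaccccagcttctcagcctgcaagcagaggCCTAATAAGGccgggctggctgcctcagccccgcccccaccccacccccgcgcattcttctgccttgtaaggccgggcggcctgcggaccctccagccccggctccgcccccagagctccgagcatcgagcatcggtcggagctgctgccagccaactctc
Egr2: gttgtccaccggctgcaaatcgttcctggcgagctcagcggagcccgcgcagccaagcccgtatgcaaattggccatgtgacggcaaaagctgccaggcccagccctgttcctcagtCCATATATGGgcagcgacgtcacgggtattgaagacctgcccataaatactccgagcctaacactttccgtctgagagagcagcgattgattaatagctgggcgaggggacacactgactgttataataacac
Dusp1: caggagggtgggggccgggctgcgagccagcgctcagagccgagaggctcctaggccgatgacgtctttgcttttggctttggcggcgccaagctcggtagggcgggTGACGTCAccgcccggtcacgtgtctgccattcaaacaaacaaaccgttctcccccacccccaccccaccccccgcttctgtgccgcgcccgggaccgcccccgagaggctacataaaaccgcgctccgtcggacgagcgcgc
The boxes lie 161 to 152 bases before the start of Myl9 and 133 to 124 bases before that of Egr2, and the element of Dusp1 lies 143 to 136 bases before its start. Myl9 was at 127 to 148 FPKM at day 8 and at 238 to 296 FPKM at day 10 (log2 fold change 1.02, SE 0.13, adjusted p = 3.85e-05), which was under 2-fold with either other scaling and without any 1 of 4 single libraries. Thus Myl9 and Egr2, both with a CArG box, moved in opposite directions.

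The immediate early genes fell as a group. Of 21 tested, 16 fell and none rose, 6 fell by at least 2-fold, and the median log2 fold change was -0.70 (13 to 19 falls under the alternatives run). The share that changed was 76.2%, against 34.5% of all genes tested. Nr4a1, an orphan nuclear receptor induced by many stimuli (chr15:101254269-101274795), was at 119, 135 and 179 FPKM at day 8 and at 16.1, 32.7 and 15.3 FPKM at day 10 (log2 fold change -2.76, SE 0.23, adjusted p = 1.16e-06). Fosb, a subunit of the AP-1 transcription factor, was at 156, 106 and 167 FPKM at day 8 and at 43.1, 52.3 and 40.3 FPKM at day 10 (log2 fold change -1.62, SE 0.20, adjusted p = 2.87e-05). Atf3, a stress-induced repressor that also stands in the stress response list, was at 65.9, 68.9 and 98.4 FPKM and then at 19.5, 26.5 and 15.9 FPKM (log2 fold change -1.87, SE 0.27, adjusted p = 0.000142). In each case the libraries of a day spread widely, but no day 10 library reached the lowest day 8 library.

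Egr2, whose promoter is shown with its CArG box, was at 8.29 to 9.77 FPKM at day 8 and at 2.02 to 4.17 FPKM at day 10 (log2 fold change -1.42, SE 0.25, adjusted p = 0.000559). Dusp1 was at 96.7 to 120.3 FPKM and then at 41.0 to 70.2 FPKM (log2 fold change -1.02, SE 0.21, adjusted p = 0.0021), which was under 2-fold without replicate 1 or 3 of day 10 or replicate 3 of day 8. Fos, the best known member, was at 518 to 649 FPKM and then at 248 to 388 FPKM, a log2 fold change just short of -1 (SE 0.20, adjusted p = 0.00166). Klf2, a zinc finger factor that also stands in the pluripotency list, was at 8.42 to 12.49 FPKM and then at 3.46 to 4.25 FPKM (log2 fold change -1.20, SE 0.43, adjusted p = 0.0445), and its adjusted p rose above 0.05 when any single library of either day was left out and without the filter. The lowest adjusted p of Klf2 in limma over the alternatives run was 2.95e-06. Its values in E12.5_GC, which shares the model, ran from 36.5 to 235 FPKM. Ier2, Fosl1, Fosl2, Ier3 and Myc did not pass, with log2 fold changes of -0.50, -0.29, -0.42, 0.07 and 0.14. Over the alternatives run, the lowest adjusted p in limma was 0.000671, 0.00556, 7.96e-06, 0.236 and 0.0454, in the same order. The summed FPKM of the listed genes ran from 2617 to 3159.9 at day 8 and from 1489 to 1989 at day 10, and E12.5_GC had a mean sum of 3545.

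Outside the immediate early genes, several genes fell more tightly. Nnat, the imprinted gene of neuronatin, a small membrane protein of the endoplasmic reticulum (chr2:157560078-157562522), was at 167, 147 and 147 FPKM at day 8 and at 23.0, 21.3 and 23.7 FPKM at day 10 (log2 fold change -2.71, SE 0.11, adjusted p = 2.18e-09). Mest, a paternally expressed imprinted gene, was at 206, 204 and 204 FPKM and then at 60.5, 67.4 and 63.4 FPKM (log2 fold change -1.67, SE 0.08, adjusted p = 8.55e-09), and 23.1% of its exonic bases overlap exons of Copg2, whose reads cannot be told apart there. Hmga2, a chromatin protein of embryonic and proliferating cells, was at 132, 125.5 and 127 FPKM and then at 44.8, 42.5 and 45.0 FPKM (log2 fold change -1.52, SE 0.09, adjusted p = 2.41e-08). Imprinted genes did not move as a block. Of 18 tested imprinted genes, 2 rose, Igf2r and Dcn, and 2 fell, Nnat and Mest, which is 22.2% against the 34.5% of all genes tested. Igf2r did not pass under quantile normalization (adjusted p = 0.0607 in limma), and Peg10 was at 163 to 189.8 FPKM at day 8 and at 179.9 to 221 FPKM at day 10 without passing.

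Hs3st3b1 and Hs3st3a1, which encode paralogous heparan sulfate sulfotransferases, fell together. Hs3st3b1 was at 11.9, 14.9 and 13.9 FPKM at day 8 and at 2.93, 3.39 and 2.83 FPKM at day 10 (log2 fold change -1.84, SE 0.11, adjusted p = 4.28e-08). Hs3st3a1 was at 8.26 to 9.36 FPKM and then at 2.39 to 2.70 FPKM (log2 fold change -1.44, SE 0.08), with 32.9% of its exonic bases shared with F930015N05Rik. Both genes lie on chromosome 11 and share sequence, so that their separate values are uncertain. Hsd11b2, the enzyme that inactivates corticosterone, was at 5.31 to 5.72 FPKM at day 8 and at 0.888 to 1.24 FPKM at day 10 (log2 fold change -1.69, SE 0.09), and Lmx1a, a LIM homeodomain factor, at 4.88 to 6.06 FPKM and then at 0.952 to 1.29 FPKM (log2 fold change -1.62, SE 0.16).

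The remaining large rises belonged to secreted proteins, receptors and enzymes. C3, the central complement component and a gene of mesothelium, was at 0.675, 0.587 and 0.700 FPKM at day 8 and at 5.43, 6.65 and 6.61 FPKM at day 10 (log2 fold change 2.12, SE 0.24, adjusted p = 1.47e-05). Ednrb, an endothelin receptor, was at 3.16 to 4.07 FPKM and then at 17.8 to 19.7 FPKM (log2 fold change 2.10, SE 0.10), and Cxcl14, a chemokine of stroma, at 6.52 to 7.61 FPKM and then at 24.6 to 26.3 FPKM (log2 fold change 1.72, SE 0.09). Pappa2 encodes a protease that cleaves IGF-binding proteins and was at 3.04 to 3.65 FPKM at day 8 and at 15.3 to 15.4 FPKM at day 10 (log2 fold change 1.90, SE 0.13). All of these were low at day 8 and moderate at day 10.

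The insulin-like growth factor (IGF) genes included further rises. Of 13 tested genes of IGFs, their receptors and binding proteins, 7 rose and none fell (53.8% changed, against 34.5% of all genes tested). Htra1, a secreted protease, was at 30.6 to 37.8 FPKM at day 8 and at 76.9 to 97.2 FPKM at day 10 (log2 fold change 1.399, SE 0.14), and Igfbp7, a secreted binding protein, at 36.3 to 40.5 FPKM and then at 85.1 to 89.6 FPKM (log2 fold change 1.14, SE 0.10). Spon2, a matrix protein, had a log2 fold change of 1.83 (SE 0.11), Cyp2d22, a cytochrome P450 of the endoplasmic reticulum, one of 1.66 (SE 0.07), and Ndufa4l2, a mitochondrial protein induced in hypoxia, one of 1.70 (SE 0.32). Por, the reductase that supplies electrons to cytochromes P450, was at 48.05 to 54.8 FPKM and then at 93.6 to 109.9 FPKM (log2 fold change 1.03, SE 0.11), and dropped under 2-fold when replicate 1 or 3 of day 10 or replicate 3 of day 8 was left out, with upper quartile scaling (0.97) and under quantile normalization (0.92).

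The markers of the gonad and of pregranulosa cells moved less and in both directions. Gata4 was at 30.8, 29.9 and 29.2 FPKM at day 8 and at 46.4, 45.7 and 46.3 FPKM at day 10 (log2 fold change 0.61, SE 0.06, adjusted p = 3.64e-06). Foxl2 was at 3.33, 2.93 and 2.83 FPKM and then at 4.88, 4.30 and 5.65 FPKM (log2 fold change 0.56, SE 0.15, adjusted p = 0.012). Both genes rose by less than 2-fold, with no overlap between the days, and the adjusted p of Foxl2 was 0.0582 without replicate 3 of day 10. Amhr2, the receptor of anti-Müllerian hormone (chr15:102445367-102454633), went the other way, from 25.3, 24.5 and 23.96 FPKM at day 8 to 5.31, 5.43 and 5.87 FPKM at day 10 (log2 fold change -1.97, SE 0.11, adjusted p = 1.39e-08). In E12.5_GC the means of Gata4, Foxl2 and Amhr2 were 144, 23.2 and 151 FPKM.

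Of 16 tested genes of pregranulosa cells and ovarian determination, 5 rose and 3 fell (50% changed, against 34.5% of all genes tested), with a median log2 fold change of -0.02. The other rises were Wnt4 and Rspo1, which act in ovarian WNT signalling, with log2 fold changes of 0.35 and 0.32 that missed the threshold without 1 of 4 single libraries each and, for Rspo1, with upper quartile scaling, Bmp2 with 0.82 and Kitl, the ligand that supports germ cells, with 0.84. Kitl was at 2.99 to 3.40 FPKM at day 8 and at 6.43 to 6.73 FPKM at day 10, against a mean of 119 FPKM in E12.5_GC. The other falls were Wnt6, at 27.5 to 32.5 FPKM and then at 13.6 to 18.7 FPKM (log2 fold change -0.81, SE 0.15), and Irx5 with -0.39. Fst, the gene of follistatin, was at 2.33 to 3.08 FPKM at day 8 and at 2.38 to 3.12 FPKM at day 10 without passing.

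Of 17 tested genes of the gonad primordium, most of which encode transcription factors or their cofactors, 1 rose, Gata4, and 6 fell, with a median log2 fold change of -0.05. The share that changed was 41.2%, against 34.5% of all genes tested. The falls included Nr2f1 and Nr2f2, orphan nuclear receptors of mesenchyme, with log2 fold changes of -0.69 and -0.68, and Emx2 with -0.29, which did not pass without any 1 of 4 single libraries. Nr2f2 was at 38.5 to 40.6 FPKM at day 8 and at 23.4 to 25.0 FPKM at day 10. Wt1 was at 58.9 to 60.5 FPKM and then at 51.7 to 53.4 FPKM and did not pass (adjusted p = 0.105). Its lowest adjusted p in limma over the alternatives run was 0.00196, so that the outcome depended on the fit. Nr5a1, the master regulator of steroidogenic gonadal cells, was at 0 to 0.0192 FPKM in all 6 libraries against a mean of 78.2 FPKM in E12.5_GC, and Lhx9 was at 0.0202 to 0.0759 FPKM, so that these 2 defining markers of gonadal somatic cells were at or near 0 at both days.

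The retinoic acid list, which concerns the pathway that AM580 acts on, showed 4 rises and 5 falls among 18 tested genes, with a median log2 fold change of -0.01. The share that changed was 50%, against 34.5% of all genes tested. Tgm2 and Stra6, known targets of the receptors, rose with log2 fold changes of 0.78 and 0.52. Tgm2, a transglutaminase, was at 56.0 to 62.9 FPKM at day 8 and at 94.7 to 107 FPKM at day 10. Aldh1a2, an enzyme that makes retinoic acid, was at 46.4 to 47.2 FPKM and then at 26.7 to 29.6 FPKM (log2 fold change -0.72, SE 0.06, adjusted p = 1.35e-06), and Rarb, a receptor gene that is itself a target, had -0.29, which did not pass without any 1 of 5 single libraries, with a pseudocount of 0.1 or without the filter. Cyp26a1, which degrades retinoic acid and is a direct target, was at 63.9 to 65.7 FPKM at day 8 and at 65.0 to 72.1 FPKM at day 10 and did not pass.

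Stress and interferon genes rose as groups. Of 21 tested genes of the integrated stress response and amino acid synthesis, 16 rose, 3 of them by at least 2-fold, and 1 fell, Atf3, with a median log2 fold change of 0.53. The share that changed was 81.0%, against 34.5% of all genes tested. Chac1, a glutathione-degrading enzyme, was at 0.474 to 0.550 FPKM at day 8 and at 2.48 to 3.32 FPKM at day 10 (log2 fold change 1.38, SE 0.11, adjusted p = 4.83e-07). Gdf15, a secreted stress signal of the TGF-beta family, was at 1.06 to 1.39 FPKM and then at 4.39 to 5.82 FPKM (log2 fold change 1.42, SE 0.14), and Trib3, a pseudokinase, at 0.940 to 1.09 FPKM and then at 3.37 to 4.10 FPKM (log2 fold change 1.25, SE 0.21). Atf4, the transcription factor of this response, whose activity is set mainly by translation, had a log2 fold change of 0.21 and did not pass. The chaperones Hspa5 and Hsp90b1 of the unfolded protein response, with 0.14 and 0.09, did not pass either. In that list 6 of 21 genes rose and 1 fell, which is 33.3% against the 34.5% of all genes tested.

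Of 22 tested interferon-response genes, 17 rose and 1 fell, Ifitm1 with -0.45, which did not pass without any 1 of 4 single libraries, and 3 rose by at least 2-fold, with a median log2 fold change of 0.58. The share that changed was 81.8%, against 34.5% of all genes tested. Bst2, or tetherin, a membrane protein that holds virions on the cell, was at 49.4, 47.4 and 45.7 FPKM at day 8 and at 119, 117 and 119 FPKM at day 10 (log2 fold change 1.30, SE 0.14, adjusted p = 9.14e-06). Oasl2, a relative of the oligoadenylate synthetases, was at 3.37 to 3.87 FPKM and then at 8.07 to 8.99 FPKM (log2 fold change 1.05, SE 0.07), and Ifit1, an RNA-binding effector, at 1.504 to 2.18 FPKM and then at 4.13 to 5.32 FPKM (log2 fold change 1.04, SE 0.10). The folds of Oasl2 and Ifit1 lay at the 2-fold limit and fell under it when replicate 2 of day 8 was left out for Oasl2 and when replicate 3 of day 8 or replicate 2 of day 10 was left out for Ifit1, and Oasl2 was also just under it with upper quartile scaling (0.995). The class I antigen presentation genes H2-K1 and B2m had log2 fold changes of 0.85 and 0.69.

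**Figure D3:**
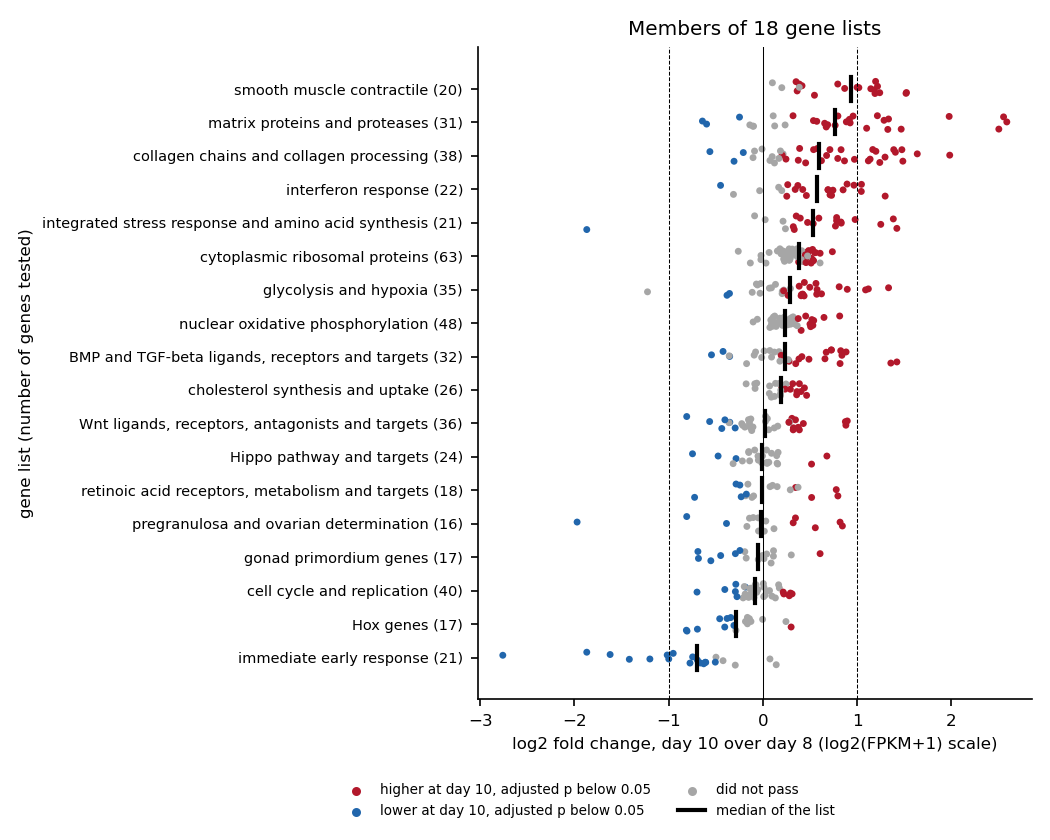
Log2 fold change of day 10 over day 8 (x axis) of each tested member of 18 gene lists (y axis, with the number tested), red where it rose, blue where it fell and grey where it did not pass, with a black bar at the median and dashed lines at 2-fold. Medians run from 0.93 for smooth muscle contractile genes to -0.70 for immediate early genes, and only 1 blue point lies in each of the interferon and stress response lists.

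Metabolic genes shifted by small amounts. Of 35 tested genes of glycolysis and hypoxia, 19 rose and 2 fell, and the 3 that rose by at least 2-fold were P4ha1, Adm and Car9. Adm, the peptide hormone adrenomedullin, was at 2.56 to 3.25 FPKM at day 8 and at 7.72 to 9.71 FPKM at day 10 (log2 fold change 1.33, SE 0.30, adjusted p = 0.00344), and Car9, a carbonic anhydrase of hypoxic cells, at 0.655 to 0.840 FPKM and then at 2.48 to 2.91 FPKM (log2 fold change 1.09, SE 0.09). Vegfa, another hypoxia target, had a log2 fold change of 0.13 and did not pass. Nuclear genes of oxidative phosphorylation had 10 rises and no falls among 48, cholesterol synthesis and uptake 10 rises and no falls among 26, and lipid synthesis, storage and uptake 6 rises and 1 fall among 18. The shares that changed were 20.8%, 38.5% and 38.9%, against 34.5% of all genes tested and 60% of the glycolysis and hypoxia genes. These first 3 lists were thus near or below the share of all genes. Most of their genes nevertheless had a fold change above 0, at 46 of 48, 22 of 26 and 15 of 18. The median log2 fold changes were 0.24, 0.19 and 0.18, against 0.01 over all genes. The counts of small shifts depended on the fit, with 5 to 38 rises for oxidative phosphorylation and 9 to 19 for cholesterol over the alternatives run.

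Cytoplasmic ribosomal protein genes had 24 rises and no falls among 63 (38.1% changed, against 34.5% of all genes tested), with a median log2 fold change of 0.38, none at 2-fold, and with 5 to 53 rises and up to 3 falls under the alternatives run. Rplp1 was at 1713 to 2043 FPKM at day 8 and at 2021 to 2448 FPKM at day 10, which overlapped and did not pass (log2 fold change 0.31), and its difference was 0.00 under quantile normalization. The median exonic length of the ribosomal protein genes tested was 1840 bases, and that of the oxidative phosphorylation genes was 1918 bases, against 4560 bases over all genes tested with a length. Across all genes tested with a length, Spearman's rho between fold change and exonic length was -0.12, and between pairs of libraries of one day it ran from -0.34 to 0.26, as a description across genes that share libraries. The part of length in the rises of both lists was not tested, and ribosomal protein genes have many processed copies among which reads may be split.

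Signalling lists were mostly mixed. Of 32 tested BMP and TGF-beta genes, 16 rose and 3 fell (59.4% changed, against 34.5% of all genes tested), with a median log2 fold change of 0.24. The ligand genes Tgfb1, Tgfb2 and Tgfb3 had log2 fold changes of 0.88, 0.66 and 0.72, and Bmp4 had 0.73. Ltbp2, an elastic fibre protein of the latent TGF-beta binding family, was at 0.566 to 0.673 FPKM at day 8 and at 2.76 to 3.67 FPKM at day 10 (log2 fold change 1.36, SE 0.07), whereas its paralog Ltbp1 fell by 0.55 on the log2 scale. The BMP target genes Id1, Id2 and Id3 did not pass, with -0.17, -0.09 and -0.01.

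Among 36 tested WNT genes, 11 rose and 6 fell (47.2% changed, against 34.5% of all genes tested), with a median of 0.03. Sfrp1, a secreted WNT antagonist, was at 104 to 111 FPKM at day 8 and at 125.2 to 135 FPKM at day 10 (log2 fold change 0.28, SE 0.08, adjusted p = 0.0124). The rise did not pass under quantile normalization (adjusted p = 0.242) or without replicate 2 of day 8 (0.0519), while the further antagonists Sfrp2 and Dkk3 had 0.88 and 0.90. The transcription factor Lef1 and the feedback gene Rnf43, targets of the pathway, fell by 0.57 and 0.29 on the log2 scale, Rnf43 with an adjusted p of 0.0517 to 0.0703 without any 1 of 4 single libraries, and the target Axin2 had -0.21 and did not pass. Of 24 Hippo pathway genes, 2 rose and 3 fell, which is 20.8% against the 34.5% of all genes tested. The secreted YAP targets Cyr61 and Ctgf went apart, with Cyr61 at 574 to 627 FPKM and then at 308 to 409.7 FPKM (log2 fold change -0.75, SE 0.18) and Ctgf at 33.5 to 37.4 FPKM and then at 52.2 to 64.8 FPKM (log2 fold change 0.68, SE 0.24), the adjusted p of Ctgf being above 0.05 when any single library was left out, with either other scaling and without the filter. Its lowest adjusted p in limma over the alternatives run was 4.44e-06.

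Hox genes, which encode position along the body axis, fell more often than they rose, with 8 falls and 1 rise among 17 tested and a median of -0.29. The share that changed was 52.9%, against 34.5% of all genes tested. Hoxc5 was at 58.9, 49.5 and 49.7 FPKM at day 8 and at 30.2, 27.2 and 31.2 FPKM at day 10 (log2 fold change -0.81, SE 0.08, adjusted p = 3.24e-06), and Hoxb8 and Hoxb9 had -0.81 and -0.70. Hoxd8 was the gene that rose, by 0.30. Of 12 Hedgehog genes, 5 fell and 3 rose (66.7% changed), with Gli1, a target gene and transcription factor of the pathway, at -0.62. In the Notch list of 14, 3 rose and 1 fell, which is 28.6% against the 34.5% of all genes tested. The fall was of Hes1, a repressor and target of the pathway, from 73.7 to 93.2 FPKM at day 8 to between 35.2 and 37.3 FPKM at day 10 (log2 fold change -1.16, SE 0.33, adjusted p = 0.0148). Its adjusted p in limma was 0.0546 without replicate 3 of day 8 and as low as 4.35e-08 over the alternatives run.

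Of 40 tested genes of cell cycle and replication, 5 rose and 6 fell, which is 27.5% against the 34.5% of all genes tested, and none changed by 2-fold (13 fell and 3 rose with upper quartile scaling), and Mki67 and Top2a had log2 fold changes of 0.13 and 0.01. Of 26 cell cycle inhibitors and p53 targets, 11 rose and 2 fell (50% changed), with Cdkn1a at 0.54 and Phlda3 at 94.8 to 109.9 FPKM and then at 128 to 156 FPKM without the groups overlapping (log2 fold change 0.53, SE 0.12). The DNA methylation enzymes had 1 fall, Dnmt3b with -0.51, among 10, which is 10% against the 34.5% of all genes tested. Pluripotency genes stayed low, with Pou5f1 at 0.363 to 0.521 FPKM at day 8 and at 0.235 to 0.479 FPKM at day 10 and Nanog at 0.546 to 0.779 FPKM and then at 0.407 to 0.621 FPKM, below the filter for testing. Of 16 tested pluripotency genes, 4 rose and 6 fell (62.5% changed), among the falls Sox2 with -0.73.

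Markers of other cell types were followed for the whole lists. The share of genes that changed was 37.5% for mesothelial, 36.4% for endothelial and 17.4% for epithelial genes. It was 18.2% for podocyte and nephron progenitor genes and 48% for extraembryonic endoderm genes, against 34.5% of all genes tested. Mesothelial genes had 4 rises and 2 falls among 16, with Upk3b at 95.1 to 103 FPKM at day 8 and at 94.6 to 103 FPKM at day 10, Msln, the gene of mesothelin, rising by 0.80 on the log2 scale and Lrrn4 falling by 0.54. Endothelial genes had 3 rises and 1 fall among 11, and the defining genes Pecam1 and Cdh5 were at 0.20 to 0.30 FPKM and at 2.85 to 3.92 FPKM. Kdr, a VEGF receptor gene of the same list, was at 43.9 to 45.8 FPKM at day 8 and at 50.2 to 51.7 FPKM at day 10 without passing, above its mean of 15.5 FPKM in E12.5_GC. Epithelial junction and keratin genes had 1 rise and 3 falls among 23, and the podocyte and nephron progenitor list had 1 of each among 11. Extraembryonic endoderm genes had 10 rises and 2 falls among 25, of which the rising Sparc, Serpinh1, Lamb1 and Col4a2 are matrix or collagen genes, while Sox17 rose by 0.71 and Cubn fell by 0.70 on the log2 scale.

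The defining markers of red cells and of all leukocytes were near 0. Hba-a1, an alpha-globin gene, was at 0 in 5 of the 6 libraries and at 0.0592 FPKM in the other, against a mean of 2190 FPKM in E12.5_GC. Ptprc, which marks all leukocytes, was at 0 in 5 and at 0.00223 FPKM in replicate 1 of day 8. Cd68, a lysosomal protein gene used as a macrophage marker, rose from 4.37 to 4.71 FPKM at day 8 to between 8.68 and 12.1 FPKM at day 10 (log2 fold change 1.00, SE 0.09), and was under 2-fold without replicate 1 of day 10 or replicate 2 of day 8 and with upper quartile scaling (0.95). Of 15 tested macrophage and mast cell genes, 4 rose, which is 26.7% against the 34.5% of all genes tested. None of the 4 erythroid and 8 Sertoli and fetal Leydig genes passed. Among the erythroid genes, 1 was at 0.136 to 0.169 FPKM at day 8 and at 0.617 to 0.680 FPKM at day 10, without overlap. Its log2 fold change was 0.51 with an SE of 0.34, and its mean in E12.5_GC, which shares the model, was 32.3 FPKM. The neuronal list of 6 held 2 rises and 2 falls (66.7% changed), with Tubb3 falling by 1.19 and Stmn2 rising by 0.92 on the log2 scale. The trophoblast list of 5 held 1 rise and 2 falls (60%), the germ cell list of 9 held 3 rises and 2 falls (55.6%), and the liver and yolk sac list of 4 held 1 rise (25%), Apoe with 0.86. Of 14 cytokine and chemokine genes 7 rose and 1 fell (57.1%). Of 9 adult granulosa and steroid synthesis genes 3 rose, Por, Inhba and Inhbb, the last 2 encoding activin and inhibin subunits. That is 33.3%, near the 34.5% of all genes tested. In all, 24 of the 42 lists had no member that changed by at least 2-fold.

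The levels at day 4, day 6 and in E12.5_GC place these changes within the course, as a description and without a test. The genes were picked by their day 8 and day 10 values. No rise could therefore have its highest mean at day 8, and no fall at day 10. The shares over all genes were not counted. Of the 112 genes that rose by at least 2-fold, 107 had their highest V580 mean at day 10, and 45 increased at every step from day 4. Their day 6 mean was below their day 4 mean in 65, as for Acta2, at 192 FPKM on day 4, 119 FPKM on day 6 and 541 FPKM on day 10, and for Lox, at 5.64, 1.96 and 34.5 FPKM. Gata4 instead climbed at each step, from 4.94 through 17.0 and 30.0 to 46.1 FPKM. Of the 37 genes that fell, 23 had their highest mean at day 8 and 13 at day 6, and 1 had it at day 4. Nr4a1 had a mean of 8.11 FPKM at day 4 and 50.2 FPKM at day 6 before its 144 FPKM at day 8, and Hmga2 had 59.9 FPKM and then 215 FPKM.

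Against E12.5_GC, 83 of the 112 genes that rose had a gonadal mean below both V580 days, 20 had one between them and 9 had one above both. In 99 of the 112, every day 10 library was above every E12.5_GC library. E12.5_GC also held RNA of red cell and endothelial genes, with means of 2190 FPKM for Hba-a1, 28.2 FPKM for Cdh5 and 12.2 FPKM for Pecam1. Its levels are therefore not those of gonadal somatic cells alone. Acta2 had a mean of 16.0 FPKM in E12.5_GC, Actg2 of 0.369 FPKM, Mgp of 4.92 FPKM and Col1a1 of 84.0 FPKM, all far below day 10. Of the 37 genes that fell, 19 had a gonadal mean above both days, 13 between them and 5 below both, and in 27 every day 10 library was below every E12.5_GC library. Both sets were chosen by their day 10 values, which favours these orders for the rises and for the falls. The shares over all genes were not counted, so that these counts do not measure a distance from the gonad. Nnat and Mest, with gonadal means of 124 and 206 FPKM, were close to E12.5_GC at day 8 and well below it at day 10. Bst2 was an exception among the rises, with a mean of 120.2 FPKM at day 4, 31.1 FPKM at day 6 and 118 FPKM at day 10, near the 105 to 174 FPKM of the E12.5_GC libraries.

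**Figure D4:**
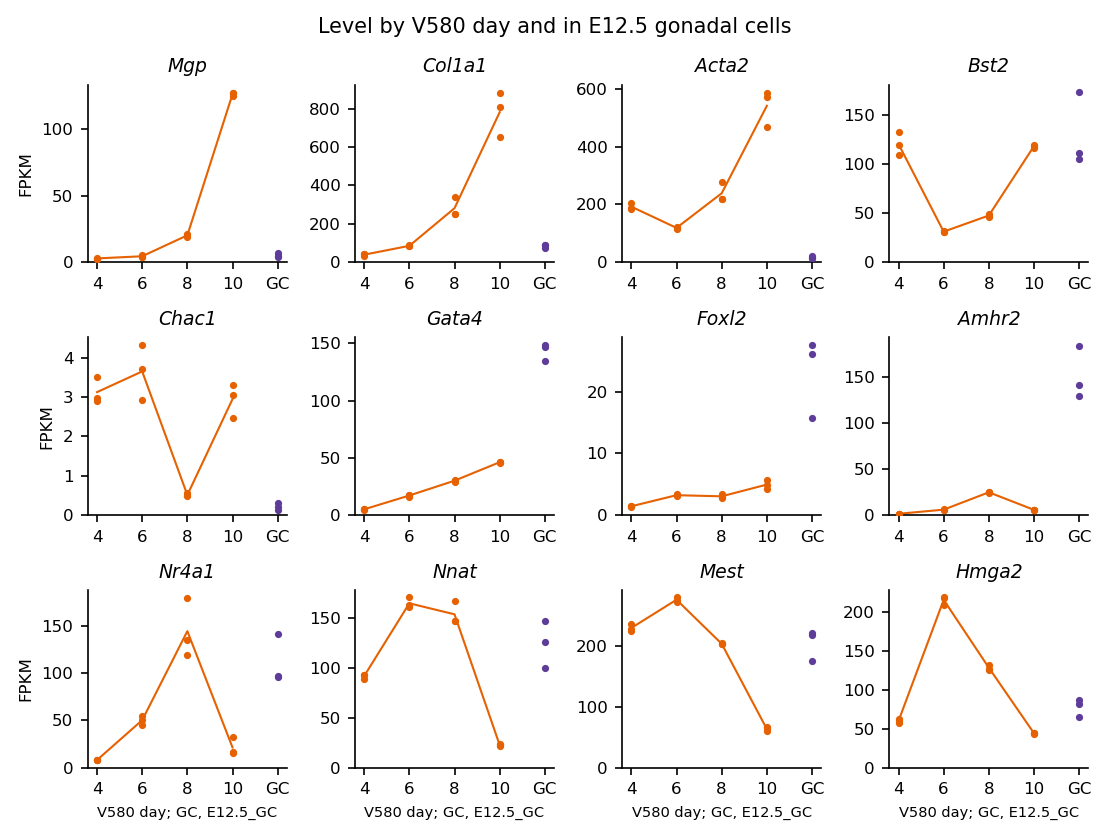
FPKM of 12 genes in each V580 library of days 4, 6, 8 and 10 (orange points, with a line through the means) and in each E12.5_GC library (GC, purple points); each panel has its own y axis from 0. Mgp, Col1a1 and Acta2 lie above the gonadal level at day 8 and further above it at day 10, Gata4 and Foxl2 stay below it, and Amhr2 and Nr4a1 peak at day 8 with means of 24.6 and 144 FPKM.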

How the data were processed

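Bulk poly(A) RNA-seq libraries were compared. The authors deposited FPKM per gene symbol (13682 genes), and the sources used here do not state the tool that gave FPKM; per the submitters' processing notes, reads were processed with Trim Galore, HISAT2, featureCounts and RSEM, among other tools, on mm10. The table's 16 other columns were not used. Use of strand is not stated, so reads of overlapping genes cannot be told apart. Groups came from the sample titles.

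Genes with at least 1 FPKM in at least 3 of 15 libraries were kept (11512). The values log2(FPKM+1) were fitted with limma 3.58.1 (trend) in R 4.3.3, in one model of V580_D4, V580_D6, V580_D8, V580_D10 and E12.5_GC without a replicate term, and day 10 was contrasted with day 8. P values were BH adjusted over all genes tested, at 0.05, with a fold limit of 2 where stated. The script was tested on simulated data. Exact permutation of 3 against 3 libraries cannot go below p = 0.1 and was not used.

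The comparison and the 42 gene lists were chosen with earlier results of these data known. Genes were chosen where they were among the 12 largest rises or falls with at least 5 FPKM and no overlap, where the study's text names them as induction markers, or as the leading members of a list (77 genes, of which 14 are not reported here); other genes were picked after their values were seen, to fill in the roles of a list. Leading members that changed by at least 2-fold had a mean of at least 2 FPKM in the higher day. The counts of a list used no such minimum.

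Depth was not given. From the FPKM steps of genes with few reads, the 6 libraries had 0.85 to 1.16 times the fragments of replicate 1 of day 8. Lengths, positions and exon overlaps came from GENCODE vM21 (GRCm38), which gave a length for 99.8% of genes tested, and promoters from RefSeq (GRCm38.p6). Alternatives covered the pseudocount, the filter, the scaling, the fold limit, the libraries fitted, a replicate block and leaving out each library.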

Additional observations from a re-analysis of the deposited data

How the results depend on the processing

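Against 149 genes changed by at least 2-fold, 151 were found with 12 or 6 libraries fitted, 148 without a filter, 123 with a minimum of 5 FPKM, 155 with quantile normalization, and 129 to 172 when each library was left out in turn. With upper quartile scaling there were 135, with 91 higher and 44 lower, so that the share of rises moved from 75.2% to 67.4%. A pseudocount of 0.1, which compresses the folds of low genes less, gave 346 genes, 216 higher and 130 lower (62.4% higher). A fold limit of 1.5 gave 729 (484 and 245), and no fold limit gave 3969 (2242 and 1727). Without the fold limit, 6682 genes passed with the 12 V580 libraries alone and 5955 with the 6 libraries of both days, against 3969 with E12.5_GC in the model.

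With the replicate number as a block there were 149 genes, all shared with the fit without it. Same-numbered libraries did not deviate together throughout (r = 0.28, 0.32 and -0.27), and the numbers were not taken as pairs.

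Of the 54 genes in the text that changed by at least 2-fold, 10 dropped below the fold or p limit under at least 1 alternative, and of 64 that changed by less, 12 did so. None of these 118 changed direction. Of the 40 tested genes in the text that did not pass, 20 had the opposite sign under at least 1 alternative. Some of the 40 passed under an alternative, with a lowest adjusted p in limma of 0.000135 for Vcl, 0.00131 for Kdr and 0.00404 for Axin2. Others passed under none, with 0.0557 for Atf4 and 0.146 for Mmp14. FPKM carry no counts, so that the counting error of low genes is not known.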
